A study of Mus musculus with 8 samples.

Results

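The genes described here are the ribosomal protein genes of the mouse. They were taken by symbol from the RefSeq annotation of mm10 (assembly GRCm38.p6), as protein-coding genes named Rpl or Rps with a number, together with Rplp0, Rplp1, Rplp2 and Rpsa. Kinases of the Rps6k family and predicted genes were left out. This gave 91 genes of the 21887 protein-coding genes placed on chromosomes 1 to 19 or on X or Y, and 347 of the 220894 regions that were deposited for the series lay in 1 of these genes or within 1000 bp of it. Of the 91 genes, 77 encode the standard proteins of the cytosolic ribosome, 46 for the large subunit and 31 for the small one. The other 14 carry symbols of variants, retrocopies or related proteins: Rpl3l, Rpl7l1, Rpl10l, Rpl22l1, Rpl32l, Rpl36al, Rpl37rt, Rpl39l, Rps27l, Rps27rt, Rps19bp1 (a protein that binds Rps19), Rps23rg1, Rpl31-ps12 and Rpl34-ps1. The last pair is annotated as protein-coding although the symbols are those of pseudogenes. Both marker genes, Rplp0 and Rpsa, were among the members and had regions.

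DNA from 8 cultured mouse cell lines was enriched by a commercial capture kit for mouse methylation studies (Agilent SureSelect XT) and sequenced after bisulfite treatment, which turns unmethylated cytosine into uracil. Mutant IDH was present in 4 lines from brain tumours, and IDH was wild-type in the other 4: a pair of brain tumour lines, labelled RAS glioma, and a pair of immortalized lines of astrocytes named PDGFA and IWT-PDGFA, the second with added wild-type IDH1. All came from mice carrying N::TVA, a transgene for the receptor of an avian retroviral vector, on a mixed background of C57Bl/6, 129 and FVB/n, and with Cdkn2alox/lox; the mouse genotype of the mutant tumour lines and of the astrocyte lines also included Atrxlox/lox, which that of the wild-type tumour lines did not. The labels give neither the ages of the mice nor whether each line came from a separate one. All values analysed come from a single deposited list for the 8 lines together, with the place of each region and the authors' score for it. Methylation levels and values of single lines are not part of that list. Mutant and wild-type lines were therefore not compared, sequencing depth is unknown, and values are given without replicate errors or tests. Intervals on shares are 95% Wilson intervals, which cover counting error only.

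Ribosomal proteins build the large and the small subunit of the ribosome around the ribosomal RNAs. Their genes are transcribed at high levels in growing cells, are mostly short, and are known for promoters rich in CpG, for a run of pyrimidines at the start of the transcript (the terminal oligopyrimidine tract, or 5' TOP, through which the mTOR pathway controls translation), and for small nucleolar RNAs (snoRNAs) encoded in their introns. In mammalian genomes they have left many processed pseudogenes, copies of their messenger RNAs inserted elsewhere. Several are known outside the ribosome: free Rpl5 and Rpl11 bind Mdm2 and stabilise p53, and changes in Rps19, Rpl5, Rpl11 and Rps26 cause Diamond-Blackfan anaemia in humans.

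Regions were found at 90 of the 91 ribosomal protein genes (98.9%, interval 94.0 to 99.8), with Rps27rt, a retrocopy of 374 bp, as the exception. Without regions near a protein-coding gene outside the members the share was 86.8%, a value not computed for all protein-coding genes. With all regions kept, the share over all protein-coding genes was 83.8%. Over protein-coding genes of 1000 to 10000 bp, a range that held 84 of the members, it was 75.1%. All 77 genes of the standard proteins had a region. The median was 4 regions per member (quartiles 3 and 5), and also 4 over all protein-coding genes, although the members were much shorter, with a median length of 3175 bp against 17169 bp. Per kb of gene and flanks the median was 0.706 regions at members and 0.302 at protein-coding genes of 1000 to 10000 bp. Single members ranged from 0 to 8 regions. The number was 3 at 28 members and 4 at 21, while 1 region was found at 5 members and 2 at 10. Another protein-coding gene lay within 1000 bp of 93 of the 347 regions (26.8%), so that these regions cannot be assigned to 1 gene.

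The regions took up a large share of the sequence of the ribosomal protein genes. The median share of a member's length inside regions was 66.2% (quartiles 40.3 and 83.5), compared with 7.64% (2.44 and 16.1) over all protein-coding genes and 15.5% (0 and 33.9) over those of 1000 to 10000 bp. Without the regions that lay near a protein-coding gene outside the members, an alternative added after seeing the data, the members' median was 37.5%. No median over all protein-coding genes was computed under that alternative. At least 50% of the gene lay inside regions for 62 of 91 members (68.1%), where the share over all protein-coding genes was 4.44%. Within the length range of 1000 to 10000 bp it was 59 of 84 members (70.2%), against 12.8% of all genes of that range. At least 90% was inside regions at 14 members (15.4%), against 0.772% of all protein-coding genes. Rpl28, Rpl41 and Rpl31-ps12 were among those that lay inside regions over their whole length, and Rpl28, a large subunit protein, did so within a single region of 3030 bp. The lowest shares belonged to genes outside the standard set, namely Rps27rt (0%), Rpl3l (6.77%), Rpl37rt (13.5%), Rpl34-ps1 (17.4%), Rps19bp1 (19.1%) and Rps23rg1 (19.1%). The lowest standard gene was Rps3 at 26.0%. Wide regions were part of this: 37 members (40.7%) had a region of at least 2000 bp, where the share over all protein-coding genes was 9.09% and over those of 1000 to 10000 bp, with 36 of 84 members (42.9%), 8.43%. The widest, 4470 bp with a score of 1881, covered most of Rpl3, which encodes a protein near the catalytic centre of the ribosome.

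**Figure D1:**
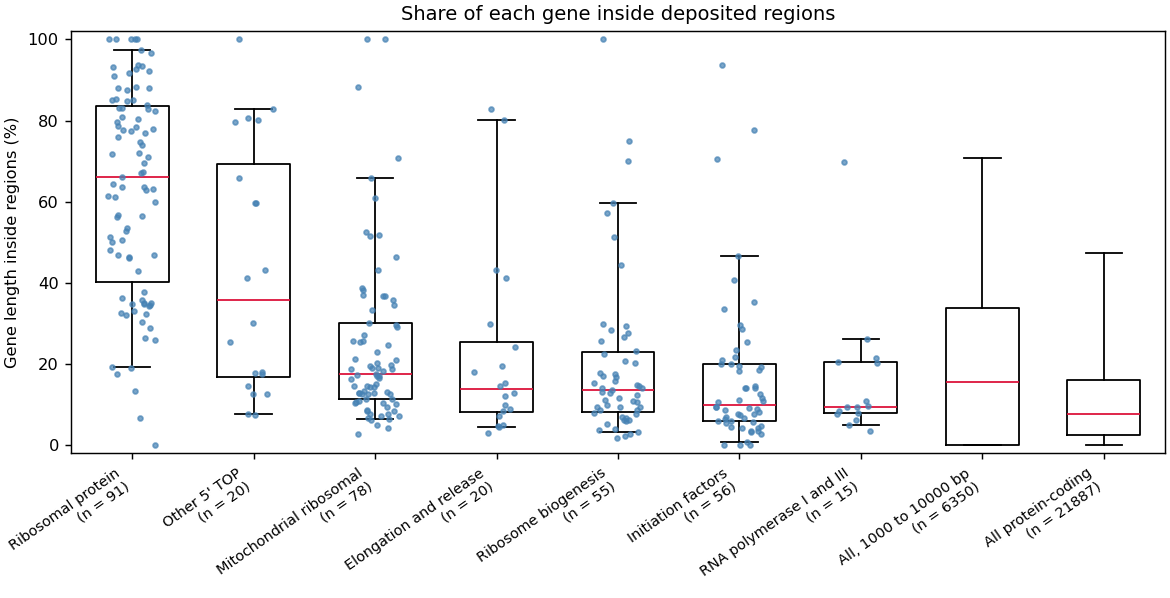
Share of each gene's length (y axis, percent) inside deposited regions, for ribosomal protein genes, for 6 other gene lists of the translation machinery and for protein-coding genes. Points are genes (not drawn for the 2 large sets), red lines medians, boxes quartiles, and whiskers the 5th and 95th percentiles. The ribosomal protein genes have a median of 66.2%, above the 35.7% of other 5' TOP genes and the 7.64% of all protein-coding genes.

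Other genes of the translation machinery also had regions nearly throughout, but over less of their length. A region was found at all 78 mitochondrial ribosomal protein genes, which serve the separate ribosome of the mitochondrion, at all 20 elongation and release factor genes, at all 55 ribosome biogenesis genes and at all 15 genes of RNA polymerases I and III, which transcribe the ribosomal RNAs and tRNAs. It was found at 55 of 56 initiation factor genes. The median share of the gene inside regions was 17.4% for mitochondrial ribosomal protein genes, 13.8% for elongation and release factors, 13.5% for biogenesis genes, 10.0% for initiation factors and 9.37% for the polymerase subunits. Closest to the ribosomal proteins were 20 other genes listed as carrying a 5' TOP, such as Eef1a1, Tpt1 and Fau, with a median of 35.7% (quartiles 16.8 and 69.3). The lists differ in gene length, with medians of 7690.5 bp for the mitochondrial proteins, 9334 bp for the other 5' TOP genes and 18496 bp for initiation factors, and 1 gene can stand on more than 1 list. No test was run between lists.

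The start of transcription could be placed for 70 members, whose promoters are in the RefSeq promoter table used here, 60 with 1 listed start and 10 with several. A region shared at least 1 bp with the window from 250 bp before to 50 bp after a start at 67 of the 70 (95.7%, interval 88.1 to 98.5), where the share over the 17492 protein-coding genes in that table was 60.3% and over those of 1000 to 10000 bp 54.1%. With the midpoint of the region required inside that window it was 25 of 70 (35.7%), against 22.6% of all protein-coding genes. Without regions near a protein-coding gene outside the members it was 47 of 70 (67.1%), a value not computed for all protein-coding genes. The 3 members without a region over any listed start were Rps10, Rpl37rt and Rps27rt. The share was close to that of mitochondrial ribosomal protein genes, of which 64 of 69 had a region there (92.8%, interval 84.1 to 96.9). All 34 large subunit genes and 22 of 23 small subunit genes of the standard set with a listed start were covered.

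Over the start, the highest scores belonged to Rpl41, Rps12 and Rps26 and the lowest to Rpl5, Rpl11 and Rpsa, while Rps10 had no region there. Their promoters are shown from 100 bases before to 25 bases after the first listed start, in RefSeq's GRCm38.p6 sequence, 5' to 3' along the gene. Capitals mark the longest pyrimidine run that touches the 10 bases on either side of the start, and any CCGGAAG, the core of the sites bound by ETS factors, on either strand.
Rpl41 (chr10:128549144-128549268, minus strand): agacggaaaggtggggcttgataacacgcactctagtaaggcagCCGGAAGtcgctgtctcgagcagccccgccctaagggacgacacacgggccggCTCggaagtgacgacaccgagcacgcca
Rps12 (chr10:23787185-23787309, minus strand): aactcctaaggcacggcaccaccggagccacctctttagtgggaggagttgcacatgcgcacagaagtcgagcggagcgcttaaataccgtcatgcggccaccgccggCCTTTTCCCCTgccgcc
Rps26 (chr10:128626482-128626606, minus strand): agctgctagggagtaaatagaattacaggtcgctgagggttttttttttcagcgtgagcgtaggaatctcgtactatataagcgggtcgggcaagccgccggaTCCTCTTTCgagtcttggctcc
Rpl5 (chr5:107900428-107900552, plus strand): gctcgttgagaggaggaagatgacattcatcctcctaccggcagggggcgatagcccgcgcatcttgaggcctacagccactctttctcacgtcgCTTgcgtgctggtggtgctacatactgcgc
Rpl11 (chr4:136053369-136053493, minus strand): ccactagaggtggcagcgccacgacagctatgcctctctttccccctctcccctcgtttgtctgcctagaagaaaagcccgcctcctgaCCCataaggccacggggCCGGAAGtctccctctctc
Rpsa (chr9:120127666-120127790, plus strand): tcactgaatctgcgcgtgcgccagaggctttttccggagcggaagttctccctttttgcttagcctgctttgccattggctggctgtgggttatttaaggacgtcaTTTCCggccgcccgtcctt
Rps10 (chr17:27635220-27635344, minus strand): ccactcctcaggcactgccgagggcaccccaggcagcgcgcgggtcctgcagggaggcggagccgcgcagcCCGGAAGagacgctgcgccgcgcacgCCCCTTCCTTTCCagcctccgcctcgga
The marked pyrimidine run was longest in Rps10, with 13 bases from 3 before the start. It reached 11 bases in Rps12 and 9 in Rps26, against 3 in Rpl41, Rpl5 and Rpl11 and 5 in Rpsa. Longer unmarked runs lie farther from the start, as in the stretches of Rpl5, Rpl11, Rpsa and Rps26. CCGGAAG occurred in the stretches of Rpl41, Rpl11 and Rps10, and elsewhere in the 300 bases around the start also at Rps26 and Rpsa. Rps10 has no score over the start. Among the others, the marked run had 9 bases or more only at Rps12 and Rps26, with high scores, while at Rpl41, also high, it had 3. Because these genes were chosen by score, they cannot show whether either feature goes with it.

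Rpl41, which encodes a very short basic protein of the large subunit, had the highest score of any member region, 2963, in a region of 1900 bp that ran from -362 to 1537 bp, counted from the start with negative values upstream. This region held the whole gene (chromosome 10, 128548110 to 128549168, mm10), and its neighbours scored 446 upstream and 1552 downstream. Zc3h10 lies within 1000 bp of regions at Rpl41. Rps12 followed with 1635 over the start, within a region from -1441 to 818 bp, and its other regions scored 923 and 1823. All 3 regions of Rps12 were therefore above the upper quartile of 768 over all regions. Rps26 had 1575 over the start and only 241 and 303 in the regions at and beyond its other end. Next came Rpl28 (1495), Rpl37 (1492), Rpl23 (1377), Rps13 (1355) and Rpl31 (1292), all of them structural proteins of the ribosome. At Rpl37 the value belongs to a region that ends at -183 bp, and the region over the start base scored 952. Rps26 and Rpl28 thus had 1 dominant region each, and Rps12 several high ones.

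At the low end, Rpl5 had a region of only 180 bp over the start, from -27 to 152 bp, with a score of 133. From 2013 to 2892 bp downstream, inside the same gene, lay a region with a score of 1973, the third highest of any member region. Low and very high scores thus stood in 1 gene of 8498 bp. Rpl11 had 192 in a region that ended at -88 bp, and 935 in the region that began at 273 bp, both counted from the start. Rpsa, which encodes the small subunit protein also known as the laminin receptor, had 213 over the start, and its other regions scored 323, 493, 542 and 845 in order along the gene. The remaining low values were 218 at Rpl35a, 240 at Rps19bp1, 247 at Rpl13a, 258 at Rpl3l and 276 at Rps21. At Rpl3l the region lies 4455 to 4804 bp past the first listed start, over another listed start, and the first has no region. At Rps10, a region with a score of 111 ended at -387 bp and the next one, with 347, began at 444 bp, both counted from the start. Its 6 regions reached 1026 near the other end of the gene.

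**Figure D2:**
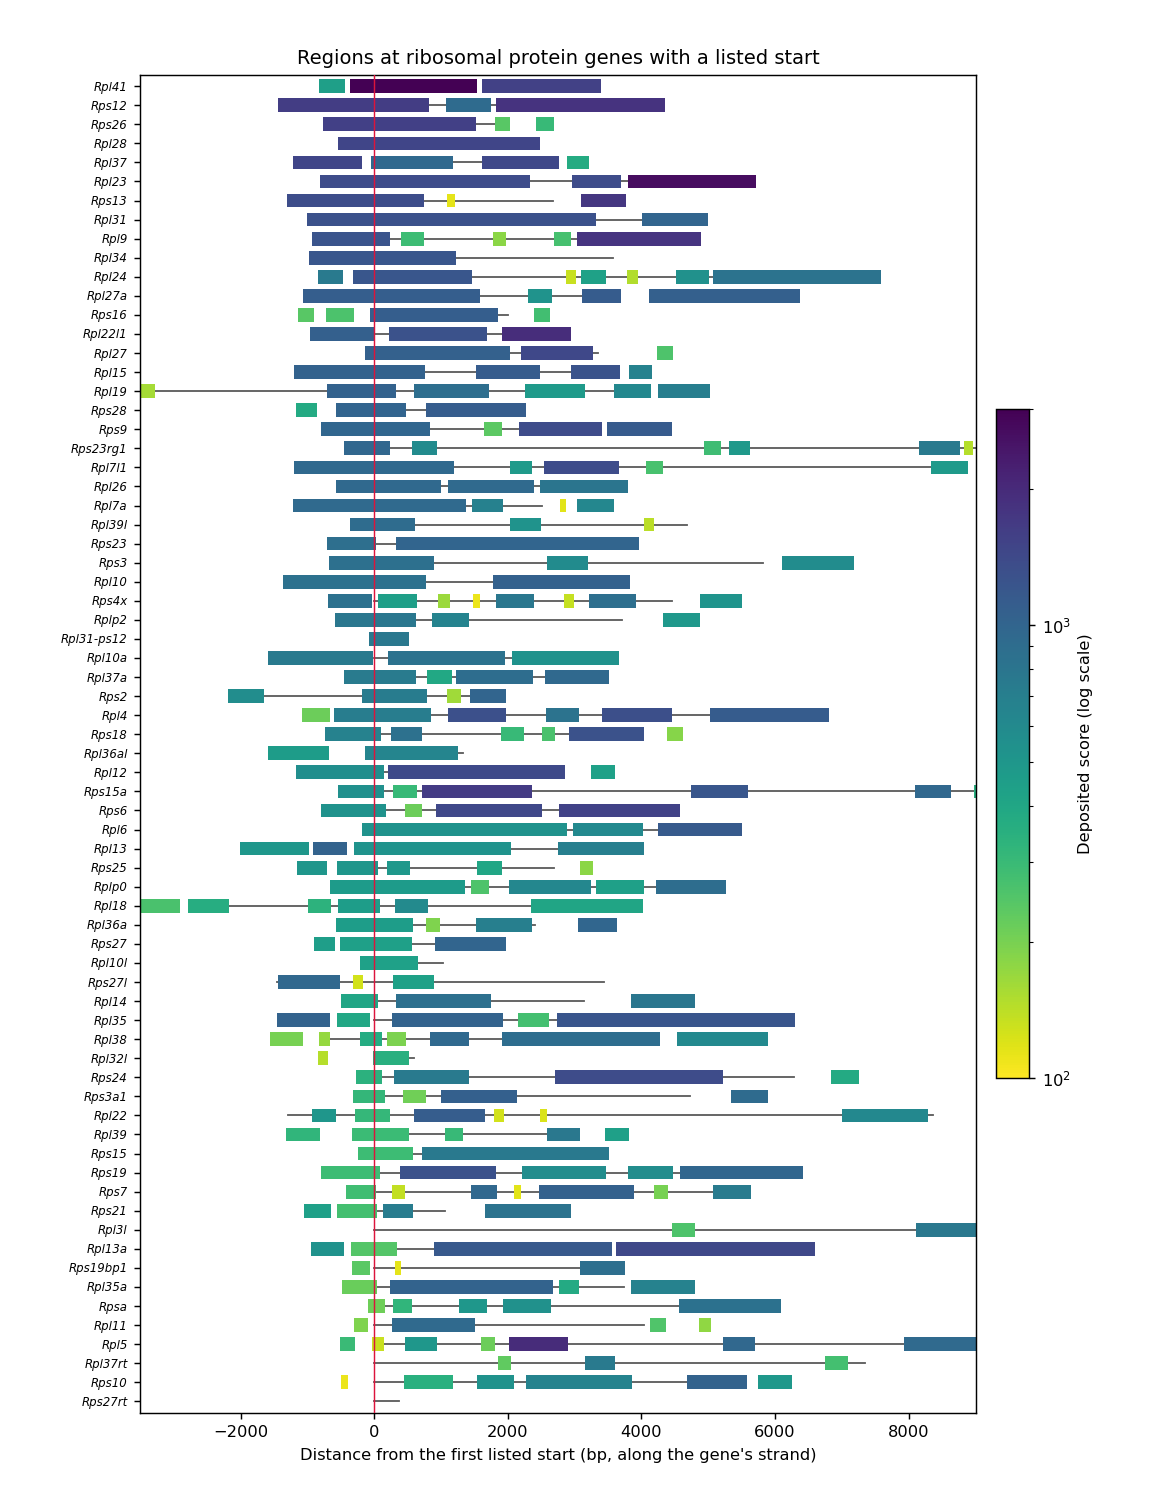
Regions (bars) at the 70 ribosomal protein genes with a listed start, in order of the highest score over any listed start, drawn by distance in bp from the first listed start (red line). Colour gives the deposited score on a log scale and the grey line the annotated gene, and positions beyond the x axis limits are not shown. Rpl41 with 2963 is at the top, and Rps10, Rpl37rt and Rps27rt, with no region over the start, are among the last rows.

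Scores over the start overlapped between the subunits. The median was 742 over 34 large subunit genes (quartiles 418 and 1093) and 610 over 22 small subunit genes (322 and 958), with scores from 133 to 2963 in the large subunit and from 213 to 1635 in the small one. Over all 67 members with such a region it was 723 (quartiles 382 and 1026), against 612 (353 and 926) over all protein-coding genes with one. The region over the start was in the upper 25% of all regions by score at 30 of 67 members (44.8%), where the share over protein-coding genes was 36.5%. Their median width was 1040 bp at members and 790 bp at all protein-coding genes, and score rose with width (Spearman rho = 0.772 across 67 members and 0.702 across 10548 genes, which are not independent replicates). Ranked among regions whose width differed by at most 50 bp, the members' start regions had a median percentile of 29.4, against 37.3 over all protein-coding genes and 30.6 over those of 1000 to 10000 bp, so the higher score over the start was not seen at matched width. The mitochondrial ribosomal protein genes had a median score over the start of 847 and a median percentile of 47.4. At 47 of 63 members with further regions (74.6%), 1 of these scored higher than the region over the start, where the share was 71.4% over all protein-coding genes and 60.9% over those of 1000 to 10000 bp.

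**Figure D3:**
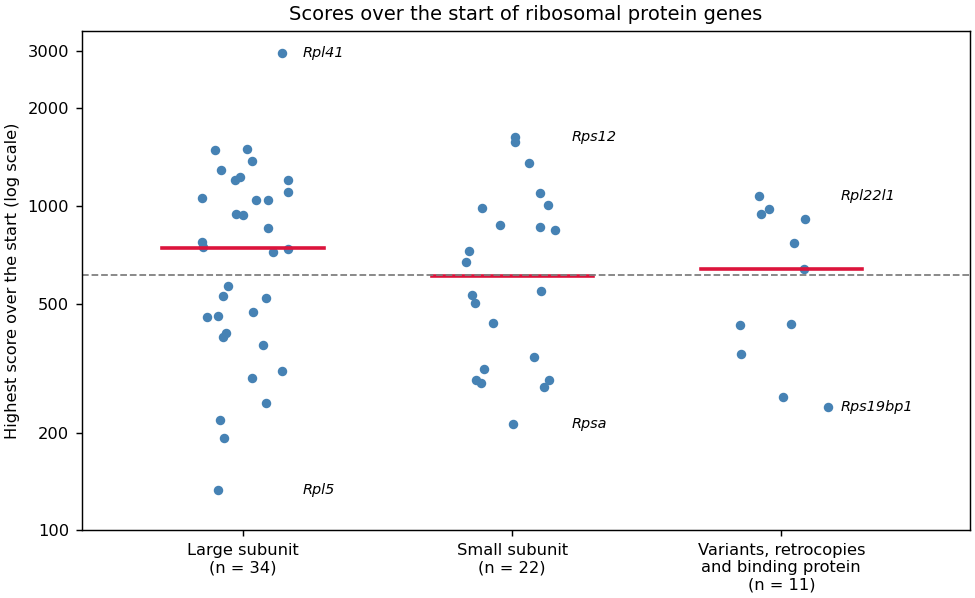
Highest score of a region over the start (y axis, log scale) for large subunit genes, small subunit genes and the other members, 1 point per gene. Red lines are medians (742, 610 and 637) and the dashed line is the median of 612 over all protein-coding genes with a region over the start.

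Around the start the members were covered about as often as mitochondrial ribosomal protein genes, and at the other end of the gene much more often. A region lay over the start base itself at 60 of 70 members (85.7%), over the base 180 bp downstream at 44 (62.9%, the lowest point in the first 500 bp) and over the base 470 bp downstream at 61 (87.1%, the highest of all positions from 2000 bp before to 3000 bp after the start). Mitochondrial ribosomal protein genes had 73.9% at the start base and 79.7% at 500 bp. At 2000 bp from the start, however, 45.7% of members were covered and 8.70% of the mitochondrial set, with 17.8% of all protein-coding genes. Many members are shorter than the distances shown, so coverage was also counted from the other end of the gene. The last base of the gene lay inside a region at 45 of 70 members (64.3%), where the share over protein-coding genes was 10.9%, over those of 1000 to 10000 bp 16.2%, and over mitochondrial ribosomal protein genes 7.25%. Regions over that end had a median score of 1003 at members, 660 at all protein-coding genes and 667.5 at those of 1000 to 10000 bp. At the 5 mitochondrial ribosomal protein genes covered there it was 1078. These scores were not matched for width. Past the end, 57.1% of members were still covered at 1000 bp and 42.9% at 2000 bp, against 10.8% and 10.9% of all protein-coding genes.

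**Figure D4:**
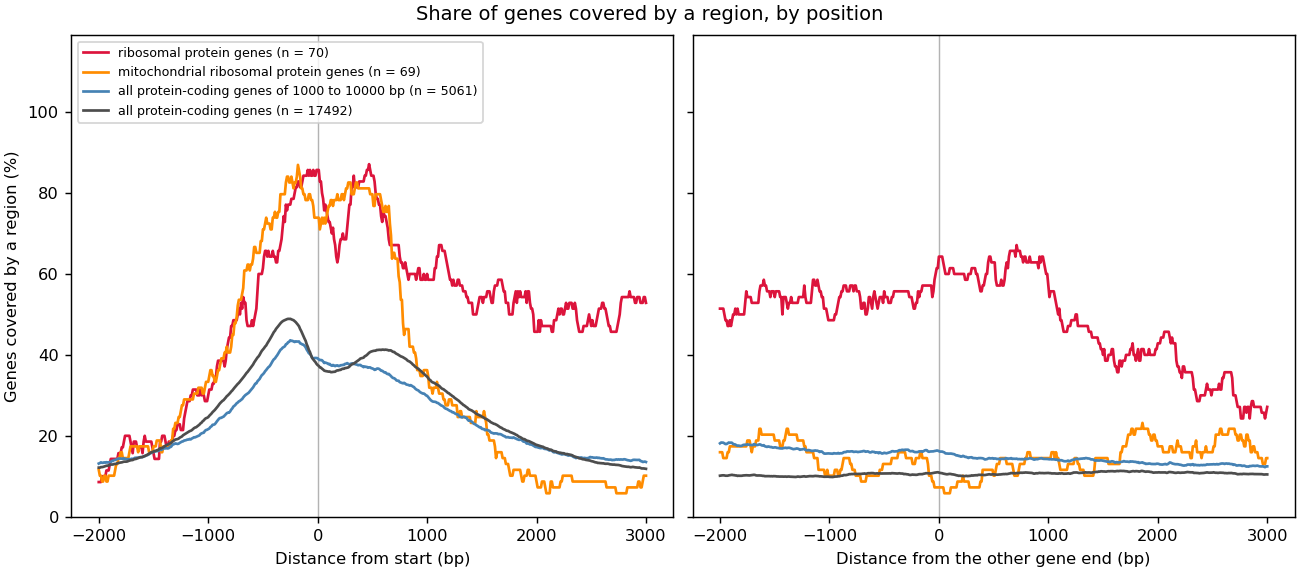
Percentage of genes covered by a region (y axis) by distance in bp from the first listed start (left) and from the other end of the gene (right, positive values lie beyond the gene), for 4 sets of genes. Ribosomal and mitochondrial ribosomal protein genes reach 87.1% and 87.0% near the start, whereas at the other end they stand at 64.3% and 7.25%.

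Over all their regions, members had higher raw scores, and at matched width the comparison depended on the genes they were set against. The median over the 347 regions was 646 (quartiles 345 and 996), against 477 over regions at all protein-coding genes and 462 over the whole list, and 146 of them (42.1%) were in the upper 25% of the list. Their median width was 700 bp against 460 bp over the whole list, and 41 (11.8%) measured at least 2000 bp, against 1.05%. With width held to 400 to 800 bp, the 97 member regions had a lower median than the whole list, 575 against 635. The median percentile at matched width was 48.8 for members, 48.6 for regions at all protein-coding genes and 36.4 for regions at protein-coding genes of 1000 to 10000 bp. After the region at Rpl41, the highest scores were 2673 across the far end of Rpl23 (chromosome 11, 97776731 to 97778640), 1973 inside Rpl5 (chromosome 5, 107902541 to 107903420), 1941 at the far end of Rpl22l1 (chromosome 3, 28807421 to 28808450) and 1881 at Rpl3 (chromosome 15, 80079591 to 80084060). The region at Rpl23 is also near 1700001P01Rik.

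The members with the most regions were all longer than the median member. Rps15a, Rpl19, Rps4x and Rps23rg1 had 8 regions each, and Rpl24 had 7, as did 3 further members. Along Rps15a (11774 bp) the scores were 548 over the start, then 302, 1668, 1215, 961, 352 and 915, and 1435 across the other end, so the highest lay 717 to 2366 bp into the gene. Rps4x, the X-linked form of a small subunit protein, had 846 just before the start, then 446, 166, 110, 777, 135 and 872 along the gene, and 518 beyond it. Rps23rg1, at 16779 bp the longest member, ranged from 146 to 982, with the highest value over the start. Rplp0, the scaffold of the ribosomal stalk, had a region of 2020 bp over the start with a score of 471, then 260, 623 and 438, and 905 across its other end. Its stalk partners Rplp1 and Rplp2 had 3 regions each, with median scores of 1057 and 657. Rps19, a protein of the small subunit, had 291 over the start and a highest score of 1288 elsewhere.

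Paralogue pairs differed in how much of the gene lay inside regions. The tissue-restricted Rpl3l, known from striated muscle, had 6.77% of its length inside regions and a highest score of 768, whereas Rpl3 had 78.3% and 1881. Rpl39l, known from testis, had 26.4% and a highest score of 912, and Rpl39 on X had 33.1% and 771. Rpl10l, an intronless copy known from testis, had a single region with a score of 433 over 63.6% of the gene, and Rpl10 on X had 56.5% and 1053. Rpl36al and Rpl36a had 93.5% and 67.1%, with highest scores of 637 and 983. For Rpl22l1 and Rpl22 the shares were 77.0% and 36.2%, with highest scores of 1941 and 1120. Rps27l, a target of p53, had 34.7% and 958 against 64.4% and 998 at Rps27, and Rpl7l1 had 37.8% and 1380 against 71.8% and 1027 at Rpl7. The variant had the lower share in 4 of these 7 pairs and the higher one for Rpl10l, Rpl36al and Rpl22l1. Every region at Rpl36al also lies within 1000 bp of Mgat2, and every region at Rps27 within 1000 bp of Rab13. Those shares therefore cannot be assigned to 1 gene. Gene lengths also differ within pairs, such as 1917 bp at Rpl22l1 and 9647 bp at Rpl22, or 8750 bp at Rpl7l1 and 3139 bp at Rpl7. The differences between paralogues have no error and were not tested.

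The 4 X-linked members, Rpl10, Rpl36a, Rpl39 and Rps4x, all had regions, where 68.7% of protein-coding genes on X did. The median share inside regions was 53.8% for them and 71.8% for the 73 autosomal genes of the standard set, and the median score of their 19 regions was 456 against 695. At matched width the medians of the percentile were 51.2 and 48.3, so the lower score on X went with narrower regions (580 bp against 780 bp).

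Some sequence features, not used in the choice by symbol, were more frequent at members with a listed start than over all promoters. In the 300 bases around the first listed start they held a median of 21 CpG (quartiles 15 and 25.8), the same as the mitochondrial ribosomal protein genes and more than the 13 (3.75 and 24) of all protein-coding genes. The fewest were 2 at Rpl3l and 3 at Rpl32l. The first listed base was C and opened at least 5 pyrimidines in a row, the form of a 5' TOP, at 14 of 70 members (20%), at 0 of 69 mitochondrial ribosomal protein genes and at 2.17% of all promoters. That count takes the listed base as exact, so it is not a count of members with a 5' TOP. In Rps12 and Rps26, for example, the longest run near the start opens at positions 9 and 4, counting the start as 1. A run of at least 8 pyrimidines touched the 10 bases on either side of the start at 29 members (41.4%), against 13.0% of the mitochondrial set and 13.7% of all promoters, and the longest run measured 21 bases at Rpl7a. The ETS core CCGGAAG was found on either strand in 25 members (35.7%) and in 11.9% of all promoters, but its share in mitochondrial ribosomal protein genes was much the same (25 of 69, 36.2%). TATAA was found in 19 members (27.1%), in 13.0% of the mitochondrial set and in 22.8% of all promoters. CAAGATGGC, a form of the YY1 site, was found in 1 member, Rpl35a (1.43%), in 11.6% of the mitochondrial set and in 1.54% of all promoters. None of these motifs contains another, and a match is not evidence of binding. The number of CpG showed little relation to the score over the start (Spearman rho = 0.165 across 67 members), and less to the percentile at matched width (0.0411).

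Most snoRNA genes inside ribosomal protein genes lay in regions. The annotation placed 59 snoRNA genes inside 30 members, and 41 of them (69.5%, interval 56.9 to 79.7) shared at least 1 bp with a region, where the share over the 402 snoRNA genes inside other protein-coding genes was 47.5%. These snoRNAs guide chemical modification of ribosomal and other RNAs. All 4 snoRNAs of Rpl13a, Snord32a, Snord33, Snord34 and Snord35a, lay in 1 region with a score of 1177. Of the 3 in Rpl23a, Snord4a and Snord42a lay in the same region (1833) and Snord42b in another (1137). By contrast, none of the 3 inside Rpl5 lay in a region, Snord21 among them. The interval counts snoRNAs in the same region as independent, which they are not. The 69.5% was near 66.2%, the median share of a member's length inside regions, although the first counts any overlap of 1 bp. Whether snoRNAs were covered more than the rest of their host genes was not tested.

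Pseudogenes of ribosomal proteins were covered as well. Of 318 annotated pseudogenes with the name of a ribosomal protein followed by -ps, 270 (84.9%, interval 80.6 to 88.4) shared at least 1 bp with a region, against 29.9% (27.5 to 32.4) of 1328 other pseudogenes with -ps in the symbol. Among pseudogenes of 300 to 1000 bp the values were 85.0% of 287 for ribosomal proteins and 41.4% of 4464 others, a set that may hold unnamed copies of ribosomal proteins. The median share of a ribosomal protein pseudogene inside regions was 67.2%, close to the 66.2% of the genes. Their median score was 364, lower than at the genes, and their median percentile at matched width was 37.7. Copies of Rpl31 had a region in 23 of 23 cases and copies of Rps12 in 13 of 23. These parents were named after their values were seen, as those with the most copies. Apart from Rps12-ps10 on chromosome 2, the copies of Rps12 without a region were all on X. The covered copies of Rps12 had a median score of 1342. Of the 77 standard genes, 62 have a pseudogene named after them, and their median score (637, as a median over genes) was lower than that of the 15 without one (732.5). At matched width the same genes had median percentiles of 49.0 and 49.8. Reads from a gene and its copies can be hard to tell apart, so every score at a member is uncertain to that extent; how reads were assigned among copies is not stated, and its part in the scores was not tested.

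**Figure D5:**
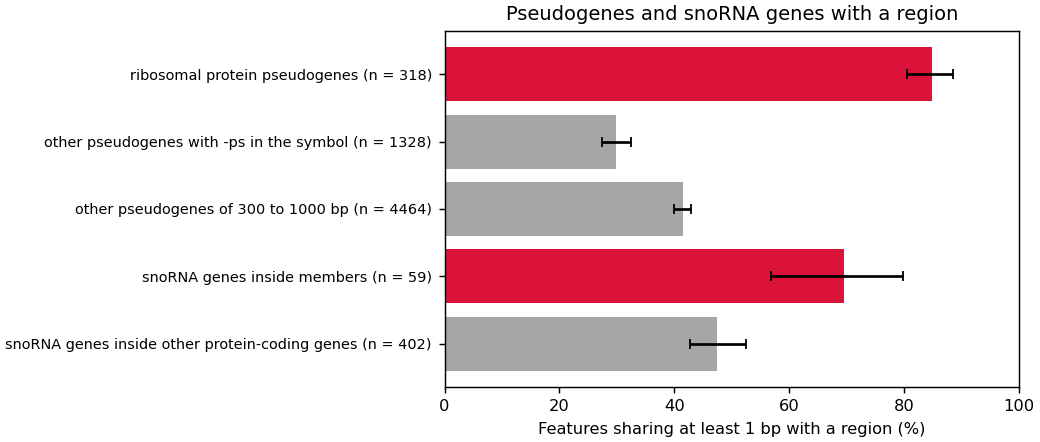
Percentage of pseudogenes and of snoRNA genes (x axis) that share at least 1 bp with a region, with 95% Wilson intervals as error bars. Red bars belong to ribosomal proteins: their pseudogenes stand at 84.9% against 29.9% and 41.4% for the 2 other sets, and snoRNA genes inside their genes at 69.5% against 47.5%.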

How the data were processed

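DNA of 8 mouse cell lines was enriched with the Agilent Mouse Methyl-Seq capture kit before bisulfite sequencing, per the labels' protocols. Per the submitters' processing notes, Novoalign 3.7.1, Picard and the mm10 build were used. No source used here names the step or filters that called regions. The authors deposited a single list of the narrowPeak type, whose name holds min10 and targets, per the file headers. Its column 5 is a deposited score in whole numbers, none below 100, with 1 score per region for all lines; what it counts is not stated. It was used to describe and rank regions within this list only. Whether regions were called per line or on pooled reads is not stated, and the depth per line is unknown. The kit's target list was not used here, so capture design and sequencing cannot be told apart.

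Genes, starts and promoter sequences came from RefSeq tables of GRCm38.p6, and coordinates count from 1. Of 91 members, 70 matched the promoter table; with several starts, a region over any of them counted, and the first listed start served for distances and sequence. A region was assigned to every gene that it overlapped by 1 bp or more, after the gene was extended by 1000 bp on both sides. Score percentiles compare a region with all regions within 50 bp of its width, and rest on few regions where widths are above 3000 bp. Interval code was tested on simulated data. Python 3.11.15, pandas 2.3.3, numpy 2.4.6 and scipy 1.17.1 were used. Members and lists were chosen with earlier results of these data known. Genes are named by a rule (both markers, the 8 highest and 8 lowest scores over the start, members without a region there or at all, the 5 with most regions, paralogue pairs, the upper 5 region scores); members named for the share inside regions, long pyrimidine runs or their snoRNAs were added after their values were seen. Alternatives were other windows, region midpoints, scores of at least 200 and members without variants. Leaving out regions near a protein-coding gene outside the members was chosen after seeing the data. Paralogue proteins were not compared here. Parts of the mouse genotypes and the results of some single genes are not reported here.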

Additional observations from a re-analysis of the deposited data

How the results depend on the processing

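No paired analysis was possible because the list holds no value of a single line, and leaving out a line was not possible for the same reason. Of 31 alternatives, 24 stayed within the 95% interval of the value reported and 7 moved beyond it. For medians that interval rests on the ranks of genes or regions. The share of members with a region became 100% with windows of 2000 bp and 100% without variants and binding proteins. It was 86.8% without regions near a protein-coding gene outside the members, an alternative that removes regions by construction. Under that alternative the share with a region over the start fell to 67.1% and the median share of a member inside regions to 37.5%. It was not run over all protein-coding genes. With the region's midpoint required in the start window, 35.7% of members had one, against 22.6% of all protein-coding genes. The median number of regions was 5 with windows of 2000 bp. The median score ranged from 575 for regions of 400 to 800 bp to 730 for scores of at least 200, within its interval of 571 to 731. Staying within the interval does not mean that the comparison held. At 400 to 800 bp members were below all protein-coding genes (575 against 615), but above them in the main setting (646 against 477). Depth per line is unknown, so what it limits could not be given.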
